A study of Homo sapiens with 3 samples.

Results

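The authors' clustering of the RNA of 19237 annotated single cells gave 14 clusters, and cluster 9, taken here by its number in the deposited annotation, held 257 of these cells. All came from spheroids of CAMA-1, an estrogen receptor-positive breast cancer line, in 2 lineages. Sensitive cells were labelled with mVenus, a yellow fluorescent transgene. Resistant cells, which had been selected by long culture in ribociclib, an inhibitor of the cell cycle kinases CDK4 and CDK6, were labelled with the red mCherry.

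Each spheroid began as 2000 cells, all sensitive, all resistant or 50% of each, and was kept in 1 µM ribociclib to day 11, so that no untreated group is part of the comparison. There was 1 library for each of these 3 cultures, made with droplet chemistry that tags each captured RNA molecule with a unique molecular identifier (UMI). The coculture library gave both a sensitive and a resistant population. Values are listed throughout for 4 populations in 1 order, namely the sensitive monoculture, the sensitive cells of the coculture, the resistant cells of the coculture and the resistant monoculture. No culture had a replicate and the cluster was drawn from the genes described here, so no test was run. Intervals (95%, exact Poisson for summed UMIs and exact binomial for shares) cover counting error only.

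The genes that set cluster 9 apart were interferon-stimulated genes. Interferons are secreted proteins that warn cells of viral nucleic acid. Cells sense foreign or misplaced RNA through the helicases encoded by DDX58 (RIG-I) and IFIH1 (MDA5) and make type I or type III interferon, which binds receptors on the same or neighbouring cells and activates a complex of transcription factors that includes STAT2 and IRF9. That complex binds a short DNA element, the interferon-stimulated response element (ISRE), and switches on genes that block viruses and load peptides on MHC class I. In breast cancer cells such a program can also run without a virus.

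The promoters of the leading genes are shown because many hold this element. Of the 15 genes highest in cluster 9, 12 had promoter windows in the RefSeq table used (GRCh38.p14, 250 bases before to 50 after the start). Of these 12, 10 (83.3%) held the core of the element, GAAA, any 2 bases and GAAA, on either strand. The same core was held by 4.38% of the 27305 genes with a window and by 3.48% of the 3941 tested genes that had one. Genes with several starts were counted once, overlapping matches were allowed, and a match is a run of letters and not a measured binding site. A second element of interferon-induced genes, the gamma-activated sequence (TTC, any 3 bases and GAA), was found for 5 of the 12 (41.7%), for 7.87% of the tested genes and for 9.38% of all genes. Over all 37 genes higher in both lineages the check was void, because only 29 of them (78.4%) had a window, under the 80% required. The 15 highest were taken for that reason. All these genes were picked for their level in cluster 9, so the shares are a description. Among the 29 the core was less frequent, in 18 genes (62.1%). No window was matched for IFIT2, OASL and PLAAT4. The 4 stretches shown lie before the start of the highest ranked genes that held the core there, with the matches in capitals:
IFIT1, chr10:89392477-89392559, plus strand: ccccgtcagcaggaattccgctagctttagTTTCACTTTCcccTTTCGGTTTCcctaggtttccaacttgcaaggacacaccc
MX1, chr21:41431824-41431893, plus strand: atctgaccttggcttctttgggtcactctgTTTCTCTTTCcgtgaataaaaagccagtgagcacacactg
IFI27, chr14:94110598-94110680, plus strand: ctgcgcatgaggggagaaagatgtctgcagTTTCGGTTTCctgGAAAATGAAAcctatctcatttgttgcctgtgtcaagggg
ISG15, chr1:1013354-1013429, plus strand: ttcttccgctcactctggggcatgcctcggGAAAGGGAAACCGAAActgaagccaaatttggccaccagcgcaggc
In IFIT1 both matches lay on the reverse strand, and in ISG15 2 forward matches overlapped.

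Cluster 9 was small in every population. In the sensitive monoculture it took up 39 of 3329 cells (1.17%, interval 0.83% to 1.60%). In the coculture it took up 43 of the 2059 sensitive (2.09%, 1.52% to 2.80%) and 67 of the 6292 resistant cells (1.06%, 0.83% to 1.35%), and in the resistant monoculture 108 of 7557 (1.43%, 1.17% to 1.72%). The share was highest in the sensitive cells of the coculture, where its interval lay above that of the resistant cells of the same library and overlapped those of both monocultures. Annotated coculture cells all had a UMI of exactly 1 transgene, while the annotation kept 1071 sensitive and 2050 resistant monoculture cells with none, so the shares of coculture and monoculture rest on unlike sets of cells. Sensitive cells made up 31.9% of cluster 9. Among the other 13 clusters that share was at most 20.2% or at least 93.4%.

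In depth and mitochondrial RNA the cells were close to the others of their population. Their median depth was 25232, 32660, 29124 and 33254.5 UMIs, and that of the other cells was 27672.5, 34130.5, 30705 and 35486 UMIs, which is higher in all 4 populations. The median mitochondrial percent was 21.3, 18.4, 16.2 and 17.0 in cluster 9 and 20.9, 17.3, 15.2 and 15.4 in the other cells. A doublet score above 0.25 was found in 2 of the 257 cells, and in 1.67% to 4.29% of the other cells of the 4 populations. The paper describes removing doublets predicted at this threshold, so these scores come from cells already filtered. No cluster 9 barcode was found in cluster 9 of another library, although 8, 7 and 17 annotated barcodes were shared between pairs of libraries. In the same pairs 2, 0 and 1 cluster 9 barcodes were found among the annotated cells of the other library. The lineage transgene was read in all cluster 9 cells of the coculture, as in all other annotated cells of that library, and in 61.5% and 65.7% of those of the sensitive and resistant monocultures, against 67.9% and 73.0% of the other monoculture cells.

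Levels are given as UMIs per 1000000 UMIs summed over the cells (CPM), and a difference as the log2 ratio of cluster 9 over the other annotated cells of the same population, with 1 CPM added to each. The ratio was averaged over the 2 populations of a lineage. Of 4674 genes whose mean level reached 20 CPM, 37 (0.792%) were higher by at least 1 on the log2 scale in both lineages. None (0%) was lower by as much in both, while 50 were higher and 23 lower by at least 0.5. The median ratio of all tested genes was -0.05 in the sensitive and -0.03 in the resistant lineage. In the sensitive lineage alone 38 genes were higher and 23 lower by at least 1, and in the resistant lineage 39 and 1. In sensitive monoculture, the population with the fewest UMIs, 38 were higher and 61 lower by at least 1, against 3 or 4 lower genes in each of the others. At that size the lineages thus shared higher genes and no lower ones. Of the 37 genes, 18 were in the list of 30 interferon-stimulated genes and 6 in that of MHC class I genes. The other 13 were EIF2AK2, SP110, PARP14, PLSCR1, IRF1, ZC3HAV1, UBE2L6, PLAAT4, IFI35, LGALS3BP, ZNFX1, HELZ2 and SHFL. Only 11 of the 37 reached 20 CPM in the other cells, so most entered the comparison through their level in cluster 9.

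**Figure D1:**
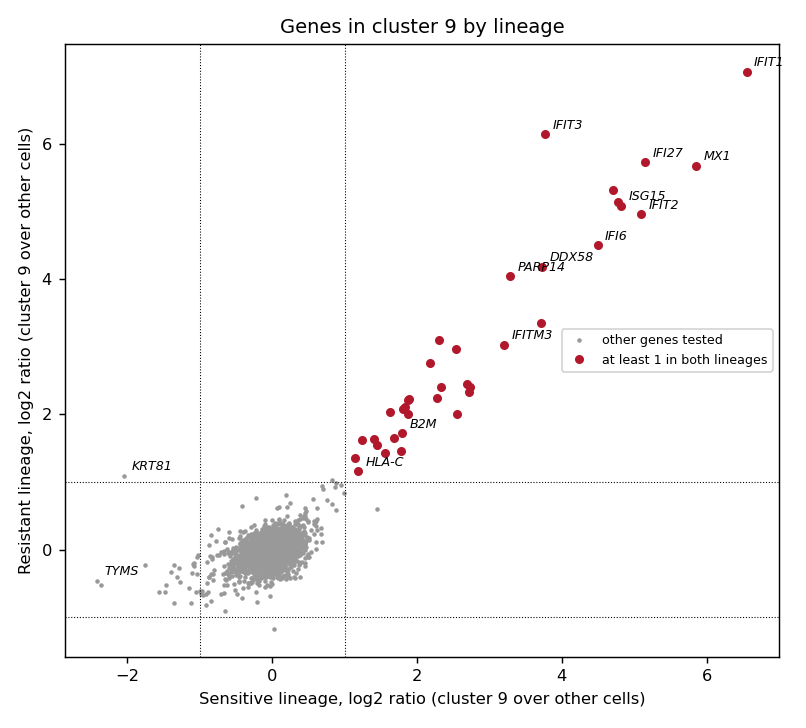
Each point is one of the 4674 genes tested, with the log2 ratio of cluster 9 over other cells in the sensitive lineage (horizontal) and the resistant lineage (vertical), and dotted lines at 1 and -1. The 37 genes at or above 1 in both lineages are red and run along the diagonal up to IFIT1 at 6.55 and 7.06, and IFIT3 lies off it at 3.77 and 6.14.

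The IFIT proteins bind viral RNA that lacks the cap marks of host messages. IFIT1 (chromosome 10, 91152303 to 91166244, plus strand, GRCh37) had the largest shared ratio. Its level in cluster 9 was 151 (interval 128 to 176), 331 (303 to 362), 245 (224 to 268) and 345 CPM (327 to 365). In the other cells it was 1.09, 1.74, 1.39 and 1.01 CPM. In sensitive coculture 1 cluster 9 cell held 138 of the 483 UMIs, and in resistant monoculture 1 held 399 of 1242. Without the highest cell of each population the level of IFIT1 in cluster 9 was 134, 243, 234 and 237 CPM. All 4 populations of cluster 9 were thus more than 100 CPM above cells in which the gene was near 1 CPM. IFIT5 was lower in level, at 12.7, 11.7, 11.3 and 6.68 CPM in cluster 9 and under 1 CPM in the other cells of each population.

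ISG15 (chromosome 1, 936518 to 949920, plus strand) encodes a ubiquitin-like protein that is joined to other proteins. With 1132, 1524, 870 and 986 CPM it was the most abundant of the 15 leading genes, against 38.1, 54.3, 24.0 and 29.0 CPM in the other cells. The conjugation enzymes UBE2L6, HERC5 and HERC6 and the protease USP18, which removes ISG15, were also at least 1 higher in both lineages. UBA7, the activating enzyme, had 0 UMIs in cluster 9, which allows up to 0.370 CPM over its 8108544 UMIs. In the other cells it had 17 UMIs, at 0.0525, 0.0288, 0.0253 and 0.0187 CPM. The 0 UMIs thus do not show a level below that of the other cells.

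IFI6, a mitochondrial protein that limits cell death, was found at 630, 472, 431 and 334 CPM, and at 18.5, 29.1, 14.8 and 16.8 CPM in the other cells. Its level was highest in sensitive monoculture, where its interval (582 to 680) did not overlap the others. IFI27 ran the other way, with 159 CPM in sensitive monoculture and 396, 519 and 446 in the other populations, against 2.77, 12.3, 6.49 and 10.2 outside the cluster. The GTPase MX1, which traps viral nucleocapsids, was found at 137, 210, 93.9 and 109 CPM against 1.40, 2.61, 1.11 and 0.898. IFIT1, ISG15, IFI6, IFI27 and MX1 were therefore high in all 4 populations, in unequal proportions.

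**Figure D2:**
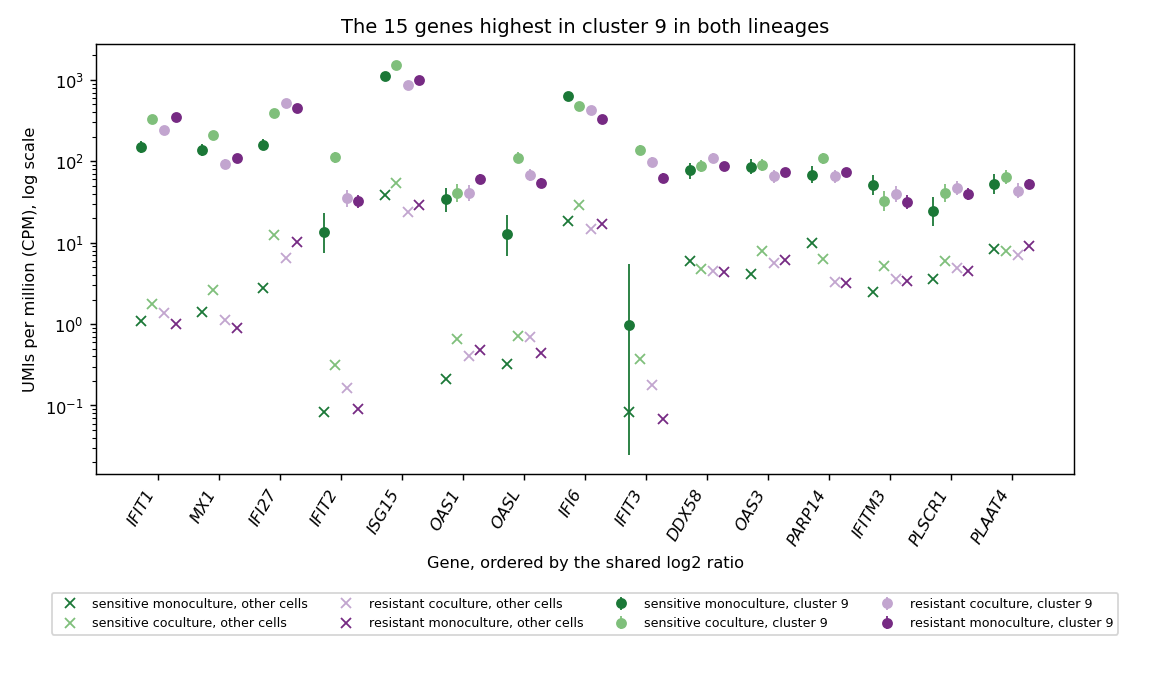
CPM on a log scale of the 15 genes with the largest shared ratio, as filled points for cluster 9 with 95% Poisson intervals and crosses for the other cells of each of the 4 populations. ISG15 and IFI6 are the highest in level, and the IFIT3 point of sensitive monoculture, at 0.978 CPM, lies far below those of the other populations.

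The 2',5'-oligoadenylate synthetases are sensors of double-stranded RNA that make a small nucleotide signal. OAS1, OAS2, OAS3 and OASL, a relative not counted among these enzymes, were at least 1 higher in both lineages. OAS1 was at 34.2, 41.2, 40.8 and 60.4 CPM against 0.210, 0.648, 0.400 and 0.486. Of 14 antiviral effectors 11 reached a mean of 5 CPM, and 9 of these were at least 1 higher in both lineages, against 0.746% of the 8708 genes at that level. Role groups were chosen after values were seen, and genes could reach 5 CPM through cluster 9, so these counts are descriptions only. MX2 and CMPK2, below 5 CPM, were also at least 1 higher in both lineages. EIF2AK2, the kinase PKR that halts translation when it binds double-stranded RNA, was at 120, 108, 115 and 115 CPM against 31.2, 34.0, 40.03 and 42.4. IFITM3, which blocks viral entry, was at 51.8, 32.9, 39.8 and 31.7 CPM against 2.46 to 5.13. BST2 (tetherin), which holds budding virions at the surface, was abundant in all cells, with 1067, 1151, 980 and 1117 CPM in cluster 9 and 304 to 463 CPM outside it. The other 3 of the 14 were the RNA editing enzyme ADAR (0.95 and 0.96), IFITM2 (0.87 and 0.93) and RSAD2 (1.24 and 0.56), which had 0, 10, 2 and 1 UMIs.

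The PARP family and its partners attach ADP-ribose to proteins and act against viral replication. Of 5 genes listed, 4 reached 5 CPM, and these 4 were at least 1 higher in both lineages, against 0.746% of all genes at that level. PARP14 was at 68.5, 110, 65.4 and 72.9 CPM against 10.00, 6.37, 3.28 and 3.21, and DTX3L, the ubiquitin ligase that pairs with PARP9, had ratios of 2.17 and 2.60.

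Of 7 sensors of RNA or DNA and their adaptors, 4 reached 5 CPM, and 2 of these were at least 1 higher in both lineages, against 0.746% of all genes at that level. DDX58 was at 77.3, 87.9, 110 and 87.1 CPM against 4.37 to 5.88, and IFIH1 at 55.8, 108, 71.8 and 62.9 against 13.4 to 20.8. DHX58, a relative of these helicases, had ratios of 0.56 and 1.87, with 1 UMI in sensitive monoculture. The adaptors MAVS (0.23 and -0.14) and TMEM173 (STING, 0.58 and 0.79) and the DNA sensor CGAS (-0.19 and 0.35) were under 1 in both lineages. TLR3, the endosomal sensor of double-stranded RNA, gave 1 UMI in each population. Of 7 transcription factors, all of which reached 5 CPM, 5 were at least 1 higher in both lineages, against the same 0.746%, among them STAT2, IRF9, IRF1 and IRF7. IRF3, which acts before interferon is made and is mostly controlled by phosphorylation, was not, at 65.5, 72.1, 75.2 and 76.2 CPM against 63.4, 71.9, 73.7 and 80.4.

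Of 6 receptor genes 5 reached 5 CPM, and 0 of these were at least 1 higher in both lineages, where 0.746% of all genes at that level were. A count of 0 among so few genes is near that share and is no result about them. IFNAR1, a chain of the type I receptor, was at 46.0, 37.8, 27.5 and 31.2 CPM in cluster 9 and 45.4, 39.8, 33.4 and 29.6 CPM in the other cells. IL10RB, a chain of the type III receptor, was at 7.83, 24.7, 23.6 and 13.6 against 16.1, 16.9, 14.7 and 13.9. It was thus below the other cells in sensitive monoculture and above them in both coculture populations, and in resistant coculture the intervals (17.4 to 31.3 against 14.2 to 15.3) did not overlap. IFNLR1, its partner, had 0 UMIs in cluster 9 and 2 UMIs in the 18980 other cells. The kinases JAK1 (0.30 and 0.31), JAK2 (0.68 and -0.00) and TYK2 (-0.06 and -0.10) were all under 1.

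Interferon messages themselves were rare. IFNB1, IFNA1, IFNA2, IFNA5, IFNE, IFNK and IFNG had 0 UMIs in cluster 9. The type III interferon IFNL1 (chromosome 19, 39787047 to 39789313, plus strand) had 0 UMIs in sensitive monoculture, 3 in 2 sensitive coculture cells, 15 in 9 resistant coculture cells and 59 in 3 resistant monoculture cells. A single resistant monoculture cell held 57 of these 59. That cell, called in S phase, also held 10 IFNL2, 3 IFNL3, 399 IFIT1, 147 IFIT3, 77 IFIT2 and 90 OASL UMIs of its 44083. Without it the resistant monoculture level of IFNL1 dropped from 16.4 to 0.563 CPM. IFNL1 was read in 14 cluster 9 cells (5.45%) and in 15 of the other 18980 cells (0.0790%), where no cell had more than 2 UMIs.

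Antigen presentation genes were higher by less. Of 12 tested MHC class I genes, 10 of which reached 5 CPM on the other cells alone, all 12 had a positive ratio in all 4 populations and 9 were at least 1 higher in both lineages, against 8.97% and 0.746% of the 8708 genes. The list had medians of 1.32, 1.73, 1.36 and 1.44. B2M, the light chain of MHC class I, was at 1488, 1270, 950 and 947 CPM against 435, 359, 273 and 300.0. The immunoproteasome subunit PSMB9 was at 21.5, 59.7, 41.8 and 69.5 CPM against 6.11 to 8.34. NLRC5 and ERAP1 were too low to be counted, and reads can be split among the near-identical HLA genes. The 10 MHC class II genes and interferon gamma targets listed were all below a mean of 5 CPM, so they were too low to be counted. CIITA, IDO1, CXCL9 and GBP5 had 0 UMIs in cluster 9, HLA-DRA had 1, 3, 1 and 1, and the chemokine CXCL10 had 1 in all. In the 18980 other cells IDO1 and GBP5 had only 1 and 2 UMIs. GBP1 had 0, 9, 2 and 1 UMIs and was read in 2.72% of cluster 9 and 0.232% of the other cells. Of the 10, 2 had a positive ratio in all 4 populations, against the same 8.97% of the 8708 genes, which were at higher levels.

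Of 30 genes in the interferon list, 28 passed a mean of 5 CPM, and 13 of those did so on the other cells alone. The list median was 3.23, 3.58, 3.30 and 3.37, against -0.04, -0.02, -0.03 and -0.02 for the 8708 genes tested at that level. With 10 CPM added in place of 1, the median averaged over the lineages fell from 3.19 to 1.73. Of the 28 genes, 26 were at least 1 higher in both lineages, against 65 of all 8708 (0.746%). The exceptions were IFITM2 and LY6E, a surface protein, at -0.06 and 0.19. XAF1 and RSAD2 did not pass. Of 8 tested NFKB targets, 1 was at least 1 higher in both lineages, against the same 0.746% of all genes. This was IRF1. The ratio was positive in all 4 populations for 4 of the 8 and negative in all 4 for 0, against 8.97% and 14.9% of the 8708 genes. The list median was 0.16, 0.45, 0.39 and 0.14. The part of NFKB in these values was not tested.

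**Figure D3:**
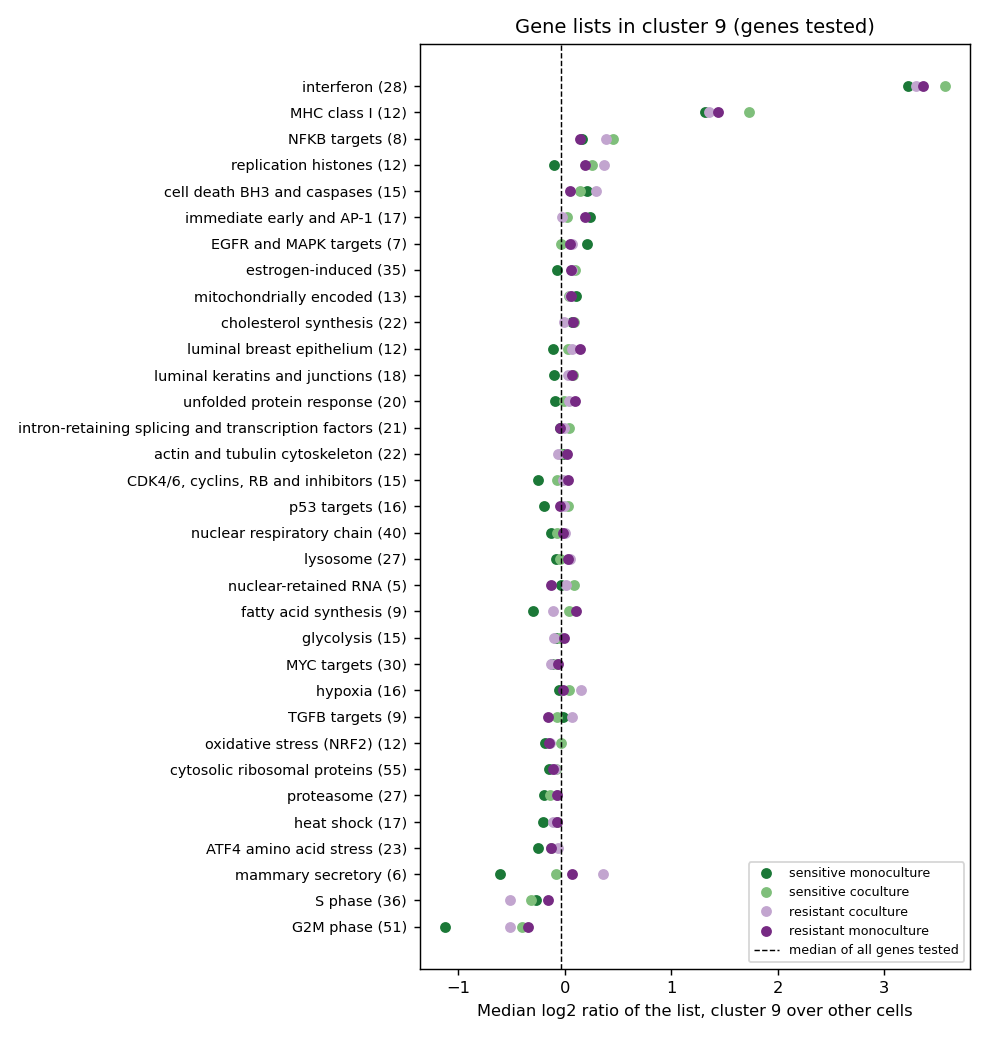
Median log2 ratio of each gene list with at least 5 tested genes, 1 point per population, with the number of genes tested in brackets and a dashed line at the median of all genes tested. Only the interferon and MHC class I lists lie above 1 in all 4 populations, and the lowest median is that of G2M phase in sensitive monoculture, at -1.13.

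Across the 14 clusters the interferon list summed to 5355 CPM in cluster 9 and to between 709 and 1480 CPM elsewhere. IFIT1 was at 293 CPM against at most 3.52. The MHC class I list summed to 2454 CPM in cluster 9 and to 2199 CPM in cluster 13, a group of 108 mostly resistant cells in which ISG15 was at 62.0 CPM. In the MHC class I list cluster 9 and cluster 13 thus stood close to each other, and in the interferon list they did not. Over 2308 genes the profile of cluster 9, centred on the mean of the clusters, correlated most with clusters 0, 13 and 3 (Pearson correlation 0.14, 0.13 and 0.05). These values are low, and the profiles were pooled over populations and not matched by them. The part of lineage and phase makeup in them was not tested.

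Single cells were separated from the rest, but not sharply. The 5 leading genes IFIT1, MX1, IFI27, IFIT2 and ISG15 summed per cell to a median of 1319, 1921, 1325 and 1502 CPM in cluster 9 and to 0, 34.8, 0 and 0 CPM in the other cells. At least 3 of the 5 genes were read in 222 of the 257 cells (86.4%) and in 212 of the other 18980 (1.12%), at median depths of 30853 and 32436 UMIs for all cells of each kind. The lowest cluster 9 cell had 213 CPM. A further 100 annotated cells outside the cluster reached 827 CPM, the lower quartile of cluster 9. These were spread over all 13 other clusters, in 0.207% to 1.62% of their cells. The cluster boundary thus fell inside a range of levels that cells of other clusters also reached.

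**Figure D4:**
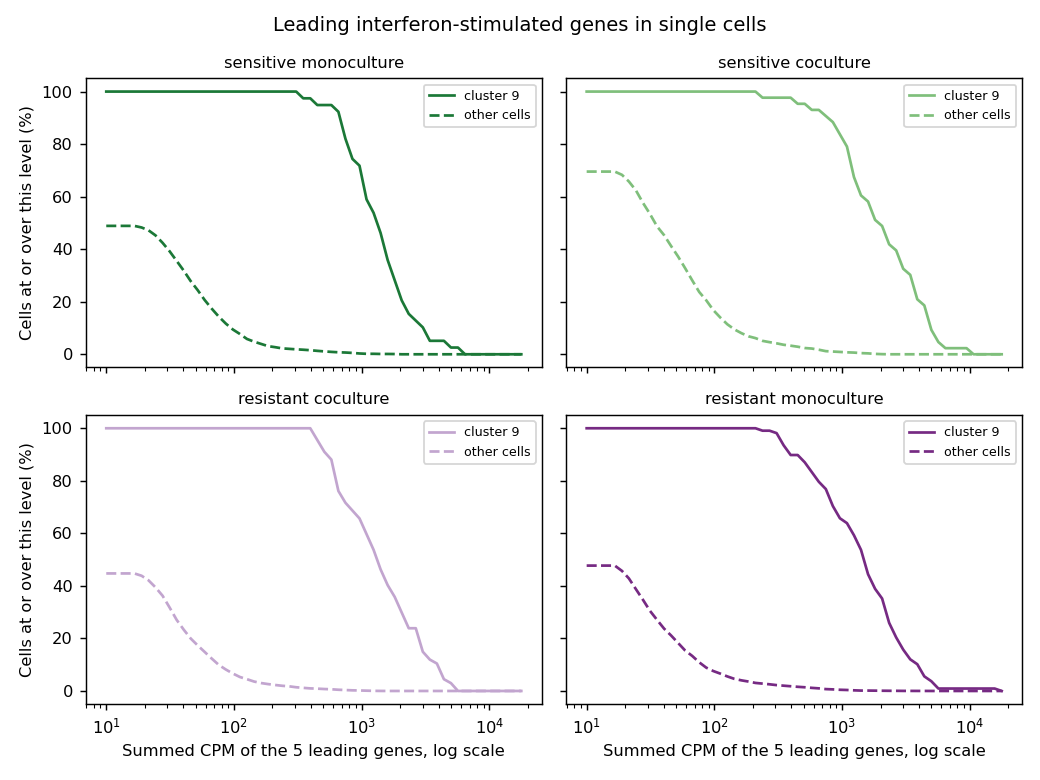
Percent of cells (vertical) at or over a given summed CPM of the 5 leading genes (horizontal, log scale), for cluster 9 (solid) and other cells (dashed) of each population. The curves of cluster 9 stay at 100% up to at least 213 CPM, where few other cells remain.

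Some interferon-stimulated genes were read in fewer of the cells. ISG15 was read in 39 of 39, 43 of 43, 67 of 67 and 107 of 108 cluster 9 cells. IFIT3, next to IFIT1 on chromosome 10, was read in 1 of 39 (2.56%, interval 0.065% to 13.5%), 19 of 43 (44.2%, 29.1% to 60.1%), 29 of 67 (43.3%, 31.2% to 56.0%) and 24 of 108 cells (22.2%, 14.8% to 31.2%). In the other cells it was read in 0.213%, 0.943%, 0.466% and 0.228%. The shares for IFIT3 in both populations of the coculture library were above those of both monocultures, with intervals that overlapped that of resistant monoculture. Its interval in sensitive monoculture did not reach that of any other population. This holds for the annotated cells, and left-out barcodes of that library that did hold IFIT3 are described below. Library and culture cannot be told apart here.

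The level of IFIT3 was 0.978, 139, 97.3 and 62.6 CPM, and 1 cell held 100 of the 203 sensitive coculture UMIs and 1 held 147 of the 225 of resistant monoculture. Without those cells the levels were 72.7 and 22.0 CPM. By level IFIT2 and OASL were also lowest in sensitive monoculture, at 13.7 and 12.7 CPM, and ranged from 32.5 to 113 and from 54.8 to 110 CPM elsewhere. The same cells weighed on both genes. Without its highest cell IFIT2 was at 8.01, 49.4, 27.8 and 11.3 CPM, and OASL at 11.1, 43.0, 59.5 and 30.1, so that the low place of sensitive monoculture was narrower for IFIT2. By cells with a UMI IFIT2 was lowest in resistant monoculture (17.9%, 32.6%, 20.9% and 14.8%), and OASL in sensitive monoculture (28.2%, 55.8%, 56.7% and 36.1%). Their ratios in sensitive monoculture alone were 3.76 and 3.37, and that of IFIT3 was 0.87. With the sensitive coculture cells left out, 31 genes in place of 37 met the rule for both lineages, and IFIT2, IFIT3 and OASL were among the 6 that dropped below the ratio or the minimum level.

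**Figure D5:**
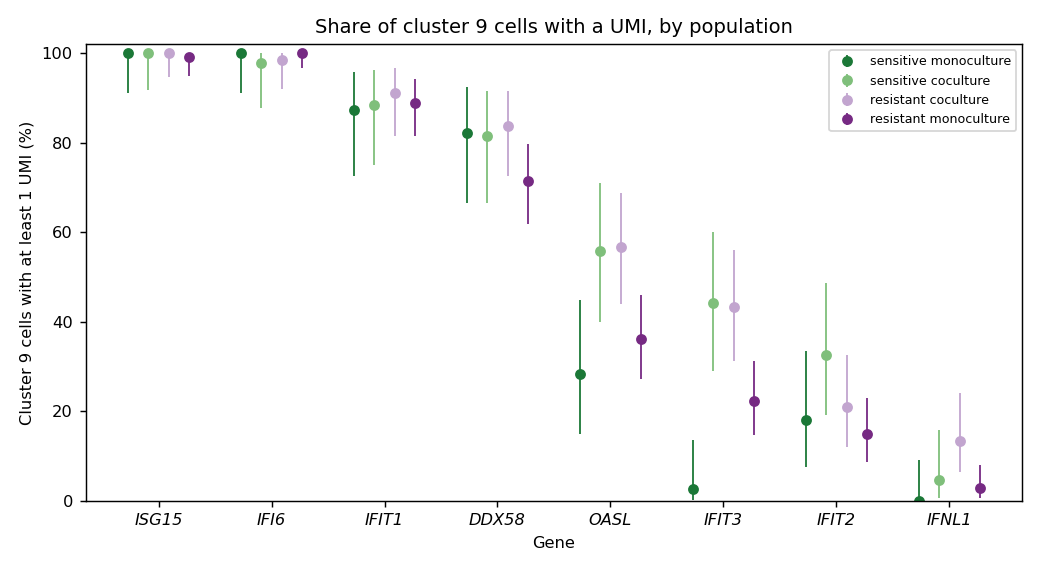
Percent of cluster 9 cells with at least 1 UMI of 8 genes, with 95% exact binomial intervals, for the 4 populations. ISG15 and IFI6 are read in 97.7% or more of cells in each population, while IFIT3 is read in 2.56%, 44.2%, 43.3% and 22.2%.

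Cells of cluster 9 with and without an IFIT3 UMI were compared in the 3 populations other than sensitive monoculture, which had 1 cell with IFIT3, a split chosen after the values were seen. Of 6742 genes, 8 were at least 1 higher on the log2 scale (10 CPM added) in cells with IFIT3 in all 3 populations and 0 were lower. They were IFIT2, OASL, IRF1, CEBPD, MX1, DDX58, FAM111B and OAS2. Of the OASL UMIs of cells with IFIT3, 1 cell held 100 of 136 in sensitive coculture and 1 held 90 of 127 in resistant monoculture. The comparison was not repeated without these cells. IRF1 was at 171, 128 and 109 CPM with and 36.6, 33.6 and 20.3 CPM without. CEBPD, a transcription factor of inflammation, was at 28.2, 28.0 and 26.4 CPM with and 4.88, 5.61 and 5.79 without. ISG15 differed less, with 2143, 1122 and 1406 CPM against 1042, 644 and 859. Cells with IFIT3 held 75 of the 77 IFNL1 UMIs, of which 57 were in 1 cell. Their median depth was 33446, 32034 and 37388.5 UMIs against 32319, 27758 and 32719.5, and the part of depth in the split was not tested.

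A few genes of the pathway differed in level between populations of cluster 9. The death ligand TNFSF10 (TRAIL) was at 11.7, 28.1 (18.2 without its highest cell), 13.3 and 3.34 CPM against 1.94, 1.51, 0.283 and 0.247. SOCS1, a feedback inhibitor of the kinases, was at 13.7, 10.3, 11.8 and 1.39 CPM against 3.83, 1.51, 1.80 and 1.59. These cluster 9 levels rested on only 14, 15, 24 and 5 UMIs. Resistant monoculture, with its 5 UMIs, was near the level of the other cells. CD274 (PD-L1) gave 2 and 8 UMIs in the sensitive populations and 0 in both resistant ones, where a count of 0 allows up to 1.47 CPM in coculture and 0.835 CPM in monoculture. The other cells were at 0.368, 0.202, 0.147 and 0.183 CPM, so 0 UMIs in the resistant populations do not show a level below that of the other cells.

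A smaller share of cluster 9 cells than of other cells was in S or G2M phase. By the deposited calls these made up 3 of 39 (7.69%), 10 of 43 (23.3%), 19 of 67 (28.4%) and 43 of 108 cells (39.8%). In the other cells the shares were 11.0%, 45.2%, 50.6% and 50.1%. The intervals of cluster 9 (11.8% to 38.6% and 18.01% to 40.7% in the coculture) lay below those of the other cells in both coculture populations. In resistant monoculture the upper bound was 49.7% against a lower bound of 49.0%, and in sensitive monoculture the intervals overlapped. Calls made anew from the counts gave 27.6% cycling cells in cluster 9 and 40.8% in the other cells. After each cell was thinned to 5000 UMIs these shares were 37.4% and 48.8%, and among the 4 populations the intervals then stayed apart only in the sensitive coculture cells (19.1% to 48.5% against 52.2% to 56.6%).

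Of the 15 genes with the lowest shared ratio, 7 were in the S or G2M phase list. Of all 8708 genes at a mean of 5 CPM, 36 were in the S and 51 in the G2M list. The other 8 of the 15 were HIST1H4C, SCGB2A2, PBK, S100P, TK1, PLK1, SPC25 and LMNB1. MKI67, a marker of cycling cells, was at 5.87, 48.0, 35.9 and 40.1 CPM against 22.9, 65.4, 68.4 and 63.7. TOP2A, which untangles replicated DNA, was at 24.5, 154, 120 and 107 CPM against 68.3, 214, 209 and 157. HIST1H4C, a replication histone, was lower in 3 populations but at 627 against 618 CPM in sensitive coculture. Of 51 tested G2M genes, 40 had a negative ratio in all 4 populations, against 14.9% of the 8708 genes, with medians of -1.13, -0.40, -0.51 and -0.35. The phase makeup moved with these genes. The 23 genes lower by at least 0.5 in both lineages came to 2 once the other cells were weighted to the phases of cluster 9. Phase is called from S and G2M genes and 12 of the 23 were in those lists, so this drop is partly given by construction.

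S100P and SCGB2A2 were the exceptions among the lowest genes that phase weighting did not bring nearer to 0. S100P, a calcium-binding protein, was at 12.4, 38.3 and 34.5 CPM against 45.8, 66.0 and 72.1 in sensitive coculture, resistant coculture and resistant monoculture. In sensitive monoculture it was at 24.5 against 17.0 CPM, where 1 cell held 20 of its 25 UMIs. SCGB2A2 (mammaglobin-A) was read in few cells, in 5.13%, 6.98%, 2.99% and 0% of cluster 9 and 3.40%, 3.92%, 2.67% and 0.416% of the other cells, so that in 3 populations the share of cells was higher in cluster 9. It gave 2, 147, 2 and 0 UMIs, of which 1 sensitive coculture cell held 145. With that cell its level there was 101 CPM and without it 1.40, against 31.1 in the other cells.

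The drug target CDK4 and the estrogen receptor were near their levels in the other cells. CCND1 (cyclin D1) was at 1743, 1752, 1607 and 1727 CPM in cluster 9 and 1786, 1547, 1534 and 1680 outside. CDK4 ratios were -0.07 and 0.01. CDK6, the other target, had 0 UMIs in cluster 9, which allows up to 0.370 CPM. The inhibitor CDKN1A (p21) was at 28.4, 19.2, 20.2 and 11.7 CPM against 23.6, 13.4, 15.2 and 9.12, and its ratios of 0.37 and 0.36 rested on 29, 28, 41 and 42 UMIs. RB1 (-0.19 and -0.30), ESR1 (0.04 and -0.00) and PGR (0.12 and 0.30) were all under 0.5, as were the nuclear RNAs MALAT1 (0.24 and 0.08) and NEAT1 (0.10 and 0.18).

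Medians of lists for other stresses lay near 0. Those of the hypoxia, unfolded protein response, amino acid stress, heat shock and p53 lists were between -0.25 and 0.15 in the 4 populations. Cytosolic ribosomal protein genes were slightly lower, with medians of -0.15, -0.08, -0.09 and -0.11 and 43 of 55 genes negative in all 4 populations, against the same 14.9% of all genes.

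Cluster 9 cells stood near the other cells of their own lineage over the genes that tell the lineages apart, though single genes differed. The 11 genes at least 4-fold apart between the lineages outside the cluster placed cluster 9 cells at -0.21, 0.15, 0.90 and 1.16 on a line from sensitive (0) to resistant (1). The other cells of the same populations stood at -0.16, 0.16, 0.85 and 1.15. FABP7, a fatty acid-binding protein of the sensitive cells, was at 1454 and 151 CPM in the sensitive and 8.85 and 0.835 in the resistant populations of cluster 9, against 1398, 292, 14.5 and 0.808 in the other cells. MGP (matrix Gla protein) was at 176 and 752 CPM in the sensitive and 7354 and 7156 in the resistant ones, against 406, 1047, 5969 and 6488 in the other cells. FABP7 was thus lower in cluster 9 of sensitive coculture (log2 ratio -0.95) and MGP in cluster 9 of sensitive monoculture (-1.20). MUCL1, a small mucin of breast epithelium, was at 4816 and 2097 CPM in the sensitive and 792 and 293 in the resistant ones, where 1 coculture cell held 635 of 1612 UMIs (488 CPM without it), against 2889.8, 1361, 506 and 296 in the other cells. By the line over all 11 genes the lineages of cluster 9 lay closer together in the coculture than in the monocultures, as those of the other cells did. MGP was read in 59.0%, 100%, 100% and 100% of cluster 9 cells and 57.9%, 99.9%, 99.98% and 99.97% of the other cells. Both coculture populations shared 1 library, and the part of RNA free in its droplets in this was not tested.

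Luminal markers had levels close to those of the other cells, and some markers of other cell types were at 0 UMIs while the sums of their lists were not always lower in cluster 9. The 12 luminal markers had a median ratio of -0.11, 0.03, 0.07 and 0.15 and summed to between 9676 and 17767 CPM in cluster 9. The basal list summed to 71.4, 19.9, 4.42 and 0.835 CPM against 33.6, 13.7, 3.12 and 1.17. KRT5, KRT17, TP63 and CNN1 had 0 UMIs in cluster 9, and MYLK, which carried most of the sum, was at 67.5 against 29.0 CPM in sensitive monoculture. The mesenchymal list summed to 26.4, 8.24, 4.92 and 5.29 CPM against 40.8, 24.8, 6.58 and 4.36, with COL1A2, ZEB1 and CDH2 at 0 UMIs. The ciliated list summed to 15.7, 9.61, 29.99 and 23.9 CPM, against 15.6, 17.6, 20.5 and 26, with FOXJ1 and DNAH9 at 0 UMIs. CAPS carried most of its higher sum in resistant coculture, at 24.1 against 13.8 CPM. The immune list summed to 0.978, 2.75, 2.95 and 1.39 CPM against 0.473, 0.720, 1.05 and 1.19, and 4 of its 6 markers, PTPRC, CD3E, LYZ and MS4A1, had 0 UMIs. The endothelial list (CDH5 and KDR at 0 UMIs) summed to 0, 0, 0.492 and 0 CPM against 0.305, 0.216, 0.142 and 0.0823, and the neuroendocrine list (CHGA and CHGB at 0 UMIs) to 0, 2.75, 4.42 and 2.78 CPM against 1.22, 2.19, 2.72 and 2.07. The part of these few UMIs in the results above was not tested.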

How the data were processed

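Each of the 3 libraries was deposited as a table of raw counts (UMIs per gene and barcode), which the authors made with Cell Ranger 3.0.2 on GRCh37. The authors also deposited an annotation of the cells within their limits (3000 to 7000 genes, 2000 to 60000 UMIs and under 30 percent mitochondrial UMIs), made with Seurat, with a percent of mitochondrial UMIs, S and G2M module scores, phase, cluster and lineage group for each cell. The paper also describes removing predicted doublets and keeping cells that expressed a transgene, although the annotation held monoculture cells with no transgene UMI. The annotation has 8 columns not used here.

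Rows that name no symbol, which hold 0.523% to 0.591% of a library, were dropped, and rows sharing a symbol were summed. UMIs were then summed over cluster 9 and over the other annotated cells of each population, with Python 3.11.15, numpy 2.4.6, scipy 1.17.1, pandas 2.3.3, scanpy 1.11.5 (doublet scores by Scrublet, with no cell removed) and, for an alternative TMM scaling only, edgeR 4.0.16. The ratio rule was tried on simulated Poisson counts with known changes. These held no spread between cells, so the trial does not cover genes whose UMIs lie mostly in single cells. Genes were tested at a mean of at least 20 CPM, and list genes at 5 CPM. Gene positions are those of a GENCODE release mapped back to GRCh37, which is newer than the annotation behind the counts.

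Named genes were the 15 highest and 15 lowest by the smaller of the lineage ratios, the leading genes of the 6 lists furthest from 0, those with the largest lineage difference, the lineage genes, and a fixed set of cell cycle and receptor genes. Genes ordered by their role in the pathway, the 5 leading genes and the split by IFIT3 were chosen after values were seen. The cluster and all lists were chosen with earlier results of these data known. The alternatives tried were other pseudocounts, minimum levels, scalings, phase or mitochondrial matching, doublet removal and leaving out 1 population at a time. A count of 0 was given a limit of 3 counts. Some results are not reported here.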

Additional observations from a re-analysis of the deposited data

Results flagged for a closer look

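Among the named genes with a UMI in every population, the ratios of 8 had one sign in both populations of a lineage and the other sign in both populations of the other lineage, which was not tested. The same was seen for 461 of the 4674 genes (9.86%). Some named genes were picked for the largest lineage difference, so the 8 are partly given by construction and cannot be set against that share. The resistant minus the sensitive log2 ratio was 3.13 for KRT81, a hair keratin found in breast cancer lines, at 0.978, 14.4, 92.4 and 246 CPM in cluster 9 and 19.7, 23.9, 68.6 and 72.2 in the other cells. One resistant monoculture cell held 644 of 886 KRT81 UMIs and 1 resistant coculture cell 133 of 188, and without them the levels were 68.0 and 27.7 CPM, both under those of the other cells. The difference was 1.06 for MGP and 1.06 for TFF3, a secreted trefoil peptide induced by estrogen, at 70.4, 283, 582 and 718 CPM against 93.6, 379, 358 and 476. It was -0.54 for NASP, a histone chaperone, -0.43 for NUFIP2 and -0.41 for LARP7. It was -1.20 for SCIN, whose ratios in the sensitive populations were 0.00 and 0.05, and 0.91 for SPINK4, a lineage gene with 2, 10, 85 and 106 UMIs.

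Barcodes that the annotation left out also held the leading genes. Among those with 2000 or more UMIs, barcodes were counted that had at least 827 CPM and at least 3 UMIs of the 5 leading genes. Their share was 0.522%, 1.26% and 0.917% at 30 percent mitochondrial UMIs or more (sensitive monoculture, coculture and resistant monoculture). It was 1.41%, 1.88% and 1.63% outside another limit. Among coculture barcodes inside the gene, UMI and mitochondrial limits it was 2.18% (87 of 3995, interval 1.75% to 2.68%). Of these 3995, 472 had both transgenes and 3523 had none. Annotated cells gave 1.38%, 1.47% and 1.64%. In these coculture barcodes IFNL1 gave 30 UMIs in 8 barcodes, with 23 in 1 of them. Of the barcodes counted at 30 percent mitochondrial UMIs or more, 7 of 21, 23 of 75 and 5 of 19 held IFIT3. Outside another limit it was held by 0 of 5, 4 of 20 and 5 of 19. Among annotated cells at that level it was held by 2 of 46, 46 of 123 and 24 of 124. IFNL1 gave 6 UMIs in 2 sensitive monoculture barcodes at 30 percent or more.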

How the results depend on the processing

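With 1 library per culture and no test, the results are limited by counting and by single cells rather than by any measured spread between samples. No paired analysis was possible because the cultures have 1 library each and no result comes from a test. Of 17 alternatives, 15 kept the count of genes at least 1 higher in both lineages within 1.5 times of 37. It was 77 with no minimum level, with all 37 among them, and 9 at a mean of 100 CPM or more, where more and fewer genes were tested by construction. Leaving out each population in turn gave 31 to 37 higher and 0 to 0 lower genes. The count of lower genes was 1 with no minimum (SLC1A2), 1 against cells of the same mitochondrial percent (S100P), and, in alternatives added after seeing the data, 4 with cluster 9 cells that had no IFIT3 UMI (HIST1H4C, HMGB2, MKI67 and RRM2) and 1 in G1 cells alone (SCGB2A2). The higher genes shared with the 37 were 25 and 34 in those 2 alternatives, and IFIT3 was then at -0.29 and -0.16 without its own cells, by construction. With 10 CPM added in place of 1, the list medians, averaged over the lineages, were 1.73 for interferon in place of 3.19, 1.15 for MHC class I in place of 1.45 and -0.21 for S phase in place of -0.38. With mitochondrial genes left out of the totals the interferon median was 3.37. Weighting the other cells by phase gave -0.16 for S and -0.20 for G2M phase, the latter in place of -0.64. These shifts are partly given by construction, because phase is called from such genes. Thinned phase calls gave 37.4% cycling cells in place of 29.2%. The position of sensitive monoculture cells between the lineages was -0.25 with genes chosen on the monocultures and -0.18 without MGP. That of sensitive coculture cells was 0.19 with genes at least 8-fold apart and 0.18 with genes chosen on the monocultures, and that of resistant monoculture cells was 1.21 at 8-fold. The cause of the changes not given by construction was not tested. The 8 recomputed shares of cells in cluster 9 moved by less than their intervals.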

Other observations

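Over the 257 cells the G2M genes HMGB2, CENPA, CDCA3 and HJURP and the S phase genes RRM2, TYMS, CLSPN and CCNE2 were those furthest from the other cells in their lists. PTTG1, which holds sister chromatids together, was at 11.7, 172, 199 and 222 CPM in cluster 9 and 103, 240, 240 and 251 in the other cells, so that the gap was widest in sensitive monoculture. BIRC5 (survivin) was at 7.83, 72.8, 95.9 and 98.2 CPM against 37.7, 115, 128 and 115. SCIN, an actin-severing protein of the sensitive lineage, was at 105 and 81.0 CPM in the sensitive populations, near the 104 and 78.2 of the other cells, and at 4.42 and 3.06 CPM against 11.3 and 8.03 in the resistant ones, where it rested on 9 and 11 UMIs.

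In resistant monoculture 16 of 24 cluster 9 cells with IFIT3 (66.7%, interval 44.7% to 84.4%) and 27 of 84 without it (32.1%, 22.4% to 43.2%) were in S or G2M phase. In the coculture the intervals overlapped, at 36.8% (16.3% to 61.6%) against 12.5% (2.66% to 32.4%) of sensitive cells and 27.6% (12.7% to 47.2%) against 28.9% (15.4% to 45.9%) of resistant cells.

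Without the interferon, MHC class I and shared higher genes, 2298 genes remained, over which cluster 9 correlated most with cluster 0 (Pearson correlation 0.25), a resistant cluster of 5818 cells of which 17.9% were cycling, and less with clusters 13 (0.09), 5 (0.07), 1 (0.07), 11 (0.07) and 3 (0.04). These are values over clusters that share libraries. Each profile was pooled over populations and not matched by them as the ratios were, and 31.9% of cluster 9 and 0.791% of cluster 0 cells were sensitive.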
